A study of Mus musculus with 12 samples.

Results

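Whether the response of the hippocampus to cage enrichment depended on an earlier dose of ethanol was read from all 12 of the 12 libraries of the series, as an interaction of 2 factors. For each gene, the ethanol difference under enriched housing was compared with the ethanol difference under standard housing, which is the same as setting the groups with neither or both exposures against the groups with a single exposure. On the log2 scale the interaction is the mean with neither plus the mean with both, minus the mean with ethanol alone and the mean with enrichment alone. A positive value means a level that was higher with neither or both, a negative value a level that was higher after a single exposure, and 0 means that the 2 exposures added. Of the 36119 genes in the deposited table, the 14947 with a mean level of at least 1 over the 12 libraries were tested. Levels are in the deposited unit, which is proportional to TPM, a length-corrected share of all transcripts, within a library.

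All animals were C57BL/6 mice, and every mouse received subcutaneous injections on postnatal days 6 and 7, with 2 injections per day given 2 hours apart. The mice of the neither group received 0.15 M saline and standard cages. Those of the ethanol-alone group received 2.5 g/kg ethanol per injection and standard cages, those of the enrichment-alone group saline and enriched cages, and those of the both group ethanol and enriched cages. Housing was assigned at day 21, and hippocampi were taken at day 70. Enriched cages held running wheels, ladders, hoops, nest material and varied objects, so physical exercise was part of the treatment. The labels call the ethanol treatment prenatal, whereas the protocol places it after birth, at a stage of rapid brain growth. Each group has 3 libraries of ribosomal RNA-depleted total RNA. The labels do not state sex, litter or cage, so the p values measure only the spread between these libraries.

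The hippocampus encodes spatial and episodic memory through a circuit of dentate granule cells and pyramidal cells, and its dentate gyrus keeps adding neurons in adult life. Ethanol in the first postnatal week kills developing neurons and is used in rodents as a model of fetal alcohol exposure late in gestation. Enriched housing with exercise is known to raise adult neurogenesis, dendritic growth and growth factor levels in this tissue. An interaction asks whether such treatments act independently of each other or whether one alters what the other does.

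Library sums of the deposited values lay between 973187 and 1024536, and Spearman correlations between libraries over the tested genes between 0.976 and 0.989. Typical deviations of a library from its group mean (root mean square over genes, log2) lay between 0.249 and 0.307. Enrichment-alone replicate 2 stood apart in genes of the choroid plexus, the tissue in the ventricles that makes cerebrospinal fluid: its level of Ttr, the transthyretin gene, was 7503, against 20.8 to 384.8 in the other 11 libraries. Neither replicate 2 was the lowest library for genes of meningeal fibroblasts, myelin and the immediate early response and the highest for dentate granule cell genes. Replicates 1 and 2 of the both group were high in heat shock and inflammatory genes, and replicate 3 of that group was not. These libraries are named again where leaving them out moves a result strongly.

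Few genes passed the test of the interaction. With limma and Benjamini-Hochberg adjustment over the tested genes, 2 genes had an adjusted p under 0.05, which is 0.0134% of those tested. At an unadjusted p under 0.05, 511 genes (3.42%) were higher with neither or both and 596 (3.99%) were higher after a single exposure. The median size of the interaction, 0.15 on the log2 scale regardless of sign, was below its median standard error of 0.18. The same model gave 2 called genes for the ethanol difference averaged over housing and 3 for the enrichment difference averaged over injection. The 2 genes called for the interaction were called in both averages as well. A gene listed above 0 in 1 group alone moves all 3 contrasts, so the counts are not of separate genes. Of the squared differences between the 4 group means, summed over genes, the interaction held 31.4%, the ethanol average 33.6% and the enrichment average 35.01%. It was the largest of the 3 components in 4835 genes, against 5081 for ethanol and 5024 for enrichment, with 7 ties. No component therefore stood out in size across the transcriptome.

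The order of the 4 group means was spread over all possible orders. Both single-exposure groups lay above the other groups in 2567 genes (17.2%) and below them in 2268 (15.2%), and 10112 genes (67.7%) had another order or tied means. The most frequent order, in 841 genes, ran from neither through ethanol alone and both to enrichment alone. Next came neither, both, ethanol alone and enrichment alone, in 825 genes. Group means lay closest between ethanol alone and both (root mean square difference over genes 0.28, log2) and farthest between neither and enrichment alone (0.32). The neither group was about as far from the both group (0.30) as from the ethanol-alone group (0.29), and the median absolute difference per gene was 0.0976 and 0.0996.

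**Figure D1:**
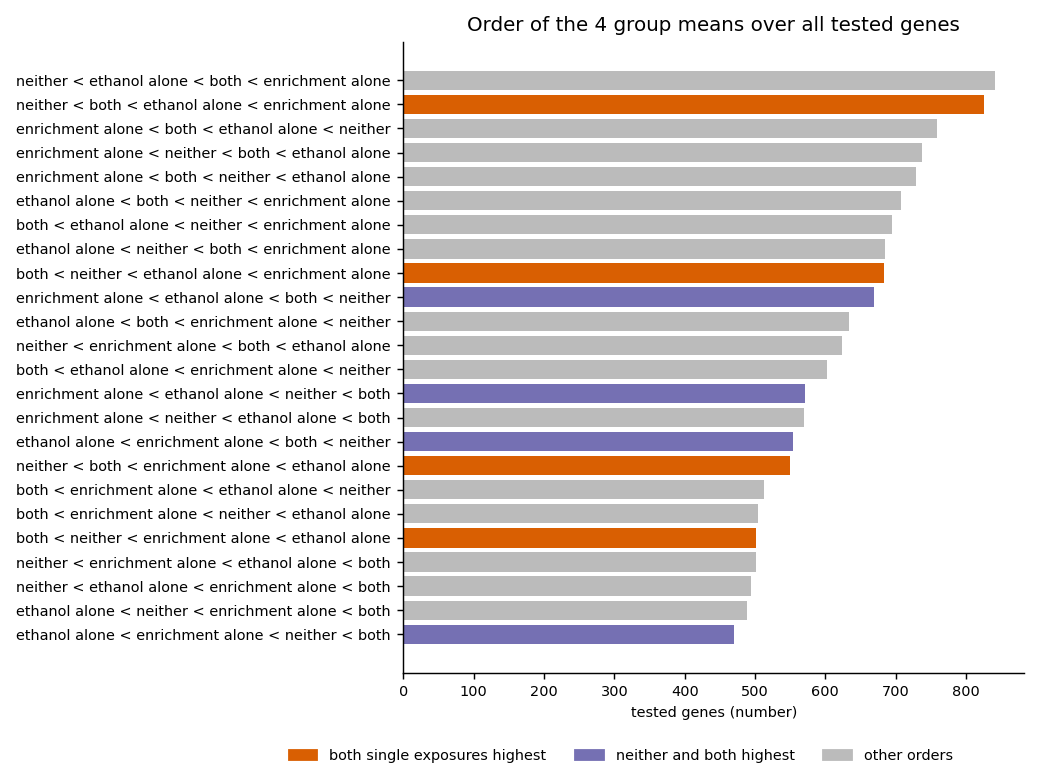
Number of tested genes (horizontal axis) with each order of the 4 group means, from lowest to highest mean; orange bars are orders with both single exposures highest, purple bars orders with neither and both highest, and grey bars the other orders. The top bar is the order neither, ethanol alone, both, enrichment alone with 841 genes, and orange and purple bars are scattered among the grey ones.

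The 2 genes that passed are low in level and were listed at exactly 0 in whole groups. Gm44922, an unprocessed pseudogene on the minus strand of GRCm38 chromosome 11 from 73413319 to 73413408, had levels of 8.47, 8.41 and 8.35 in the neither group and 0 in the other 9 libraries. Its interaction was 4.16 (SE 0.38, limma adjusted p = 0.00263). ENSMUSG00000118641, an identifier without a symbol or coordinates in GENCODE M21, had levels of 10.4, 5.69 and 4.41 in the ethanol-alone group and 0 elsewhere (interaction -3.79, limma adjusted p = 0.0418). Gm44922 passed with each library left out in turn, whereas ENSMUSG00000118641 lost its call in 10 of those 12 fits, with limma adjusted p between 0.0734 and 0.147, and with the replicate block (0.134). Each gene was therefore present in 1 group and listed at 0 in the others, and a listed 0 in such a table can be a failed estimate. The size of these interactions depends on the pseudocount added before the logarithm and is not a measured fold change. With a pseudocount of 0.1 in place of 0.5 the interactions were 6.41 for Gm44922 and -6.02 for ENSMUSG00000118641. The predicted gene Gm11027 was of the same kind. It was listed at 0 in the 3 enrichment-alone libraries and between 3.04 and 22.3 elsewhere, and did not pass (limma adjusted p = 0.460; 0.0373 without ethanol-alone replicate 1). In all, 104 tested genes (0.696%) were listed at 0 throughout at least 1 group, 59 of them processed pseudogenes. With those genes left out, or with protein-coding genes alone, or with a minimum mean of 5, or with a pseudocount of 0.1, 0 genes passed, with 1089, 1062, 889 and 1105 at an unadjusted p under 0.05.

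The transcript of Gm44922 is shown because it carries the smallest p of the contrast. It is 90 bases long, from GENCODE M21, and 6 of its 60 distinct 31-base words also occur in transcripts of 10 other genes. Capitals mark the bases covered by a 31-base word found in no other gene's transcripts.
Gm44922: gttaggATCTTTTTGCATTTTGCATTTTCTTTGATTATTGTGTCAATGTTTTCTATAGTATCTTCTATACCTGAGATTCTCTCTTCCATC
Most of this short transcript is thus covered by 31-base words found in no other gene's GENCODE M21 transcripts. The deposited table holds identifiers absent from GENCODE M21, and transcripts outside that annotation were not compared. Whether unannotated copies in the genome share the sequence, and where its reads came from, was not tested.

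Among genes measured in every library, the smallest p belonged to Map7, whose product binds microtubules and recruits the motor kinesin-1. Map7 (chromosome 10, 20148471 to 20281590, plus strand) had levels of 84.3, 73.5 and 84.1 with neither exposure, 64.3, 64.2 and 59.4 with ethanol alone, 60.5, 62.7 and 63.2 with enrichment alone and 73.7, 79.3 and 77.6 with both. All 6 single-exposure libraries lay below all 6 others, and the neither and both groups overlapped. The log2 difference with ethanol was -0.36 (SE 0.07) in standard cages and 0.30 (SE 0.07) in enriched cages, neither of which passed on its own. The interaction was 0.66 (SE 0.09) and missed the threshold over all genes (limma adjusted p = 0.0700). It passed with median-ratio scaling of the libraries (limma adjusted p = 0.0472), with library weights (0.03005) and without neither replicate 2 (0.0153).

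A second microtubule protein, Map1a, which stabilises microtubules in dendrites of mature neurons, had a similar order. Its levels were 365, 409 and 413 with neither, 412, 359 and 329 with ethanol alone, 316, 315 and 308 with enrichment alone, and 435, 429 and 403 with both. The enrichment-alone libraries lay below all others, whereas ethanol alone overlapped the neither and both groups. The interaction of Map1a was 0.55 (SE 0.11, limma adjusted p = 0.460). Over the 31 tested microtubule-associated genes the median interaction was 0.02, so Map7 and Map1a did not carry their list.

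Other genes with small p and lower levels after a single exposure take part in membrane traffic, synaptic signalling, iron storage and chromatin. Ermp1, an endoplasmic reticulum metallopeptidase, had levels of 51.6, 53.4 and 49.1 with neither, 45.7, 40.9 and 43.1 with ethanol alone, 42.6, 41.3 and 40.5 with enrichment alone and 46.3, 49.0 and 48.0 with both (interaction 0.45). Rab8a, a small GTPase of vesicle transport, had group means of 38.8 ± 2.26, 36.3 ± 1.92, 32.6 ± 1.14 and 43.5 ± 2.21 in the same order of groups (SD, n = 3; interaction 0.51). In Ermp1 the 6 single-exposure libraries lay below the other 6, and in Rab8a they did not. Adcy1, the calcium-stimulated adenylyl cyclase of hippocampal plasticity, had 308, 310 and 291 with neither, 256, 257 and 230 with ethanol alone, 269, 279 and 280 with enrichment alone and 336, 298 and 285 with both (interaction 0.44), again with the single-exposure libraries lowest. Psd, a synaptic exchange factor for Arf6, had group means of 483.3, 396.0, 409.0 and 435.0 (interaction 0.37). Fth1, the ferritin heavy chain, lay between 1917 and 2170 in the single-exposure libraries and between 2153 and 2649 in the others (interaction 0.52). Hist1h2bj, one of many near-identical H2B genes whose reads can be exchanged between copies, was between 7.28 and 11.3 after a single exposure and between 11.7 and 13.7 otherwise (interaction 0.86). For these 6 genes the limma adjusted p lay between 0.460 and 0.509, so none passed.

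In the opposite direction the smallest p belonged to Tcerg1l, a little-studied relative of a transcription elongation regulator. Tcerg1l (chromosome 7, 138208974 to 138397730, minus strand) had levels of 5.83, 6.12 and 6.01 with neither, 8.996, 7.58 and 9.17 with ethanol alone, 7.65, 8.99 and 8.83 with enrichment alone and 5.97, 5.45 and 5.67 with both. Each exposure given alone went with a level above that of the neither group, with no overlap, and the mice with both exposures were at or below the level of the neither group. Its log2 differences from the neither group were 0.48 (SE 0.11) for ethanol alone, 0.47 (SE 0.11) for enrichment alone and -0.07 (SE 0.11) for both. The interaction was -1.02 (SE 0.16, limma adjusted p = 0.163), and it passed only when the mean-variance trend was left out (0.0494).

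Adcyap1, which encodes the neuropeptide PACAP, a stimulator of cyclic AMP signalling with protective actions on neurons, also had its single-exposure groups highest and the both group lowest, here with enrichment alone above ethanol alone. Adcyap1 (chromosome 17, 93199017 to 93206537, plus strand) had levels of 8.53, 7.78 and 8.19 with neither, 9.97, 10.3 and 9.47 with ethanol alone, 10.3, 10.01 and 13.8 with enrichment alone, and 7.35, 7.17 and 7.09 with both. The libraries of the both group were lowest and the single-exposure libraries highest, with no overlap between the 6 single-exposure libraries and the others. The interaction was -0.88 (SE 0.17, limma adjusted p = 0.460). Sstr1, a receptor for the inhibitory peptide somatostatin, had levels of 11.03, 10.4 and 11.2 with neither, 18.1, 15.7 and 18.4 with ethanol alone, 15.2, 22.4 and 16.9 with enrichment alone and 13.9, 14.98 and 15.85 with both (interaction -0.91). Here every exposed group was above the neither group, and both exposures together did not exceed either alone.

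In Marcks too, the neither group was lowest and both exposures together did not exceed either single exposure. Marcks, a membrane protein that binds actin in growing neurites, had group means of 59.1 ± 3.76 with neither, 78.0 ± 2.95 with ethanol alone, 71.2 ± 2.56 with enrichment alone and 67.0 ± 4.90 with both (SD, n = 3; interaction -0.49). Nrbp2, a pseudokinase linked to neuronal survival, was highest with ethanol alone at 46.1, 39.7 and 46.7, and between 27.8 and 37.1 elsewhere (interaction -0.66). Tmem132a (interaction -0.51) and the kinase Cdkl4 (-0.55) had the lowest libraries in the neither group. Gm6710 (interaction -0.52) shares 93.9% of its 31-base words with other genes' transcripts, so its level is uncertain. None of these genes passed the interaction test, with limma adjusted p between 0.460 and 0.509.

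**Figure D2:**
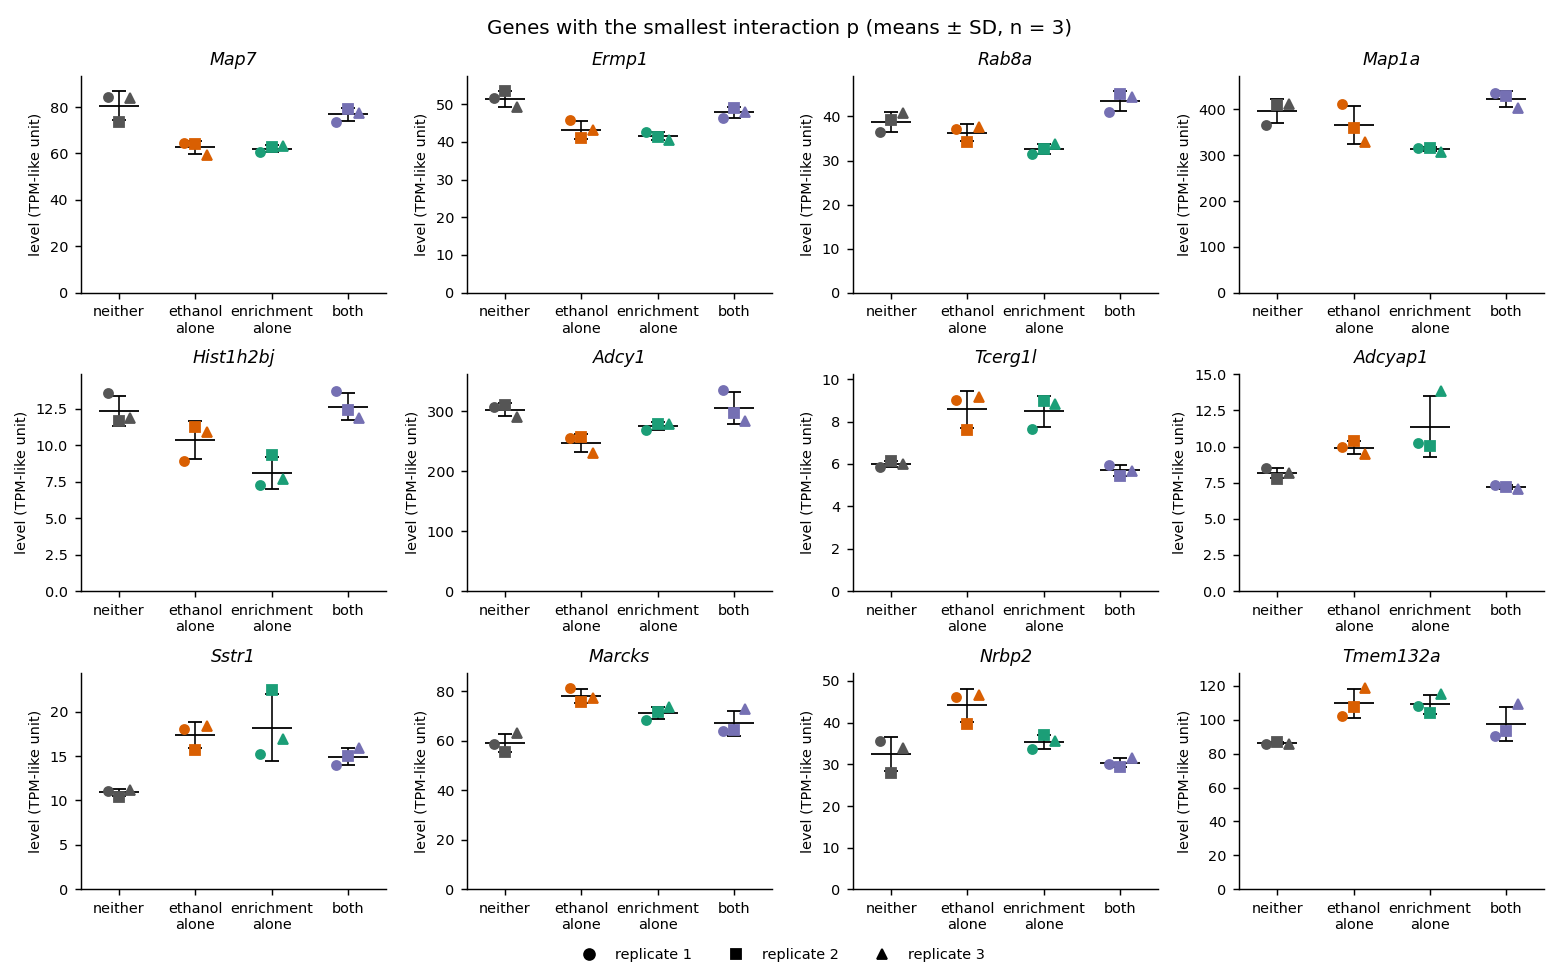
Level in each library (vertical axis, TPM-like unit of the deposited table) of 12 genes with small interaction p, by group; symbols mark replicates, horizontal lines the mean and whiskers the SD of 3 libraries. In Map7, Ermp1, Hist1h2bj and Adcy1 the 6 single-exposure libraries lie below the other 6, and in Tcerg1l and Adcyap1 they lie above them.

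Taking every gene with the pattern that the design asks about, the 6 single-exposure libraries all lay below the other 6 in 22 genes (0.147% of those tested) and all above in 30 genes (0.201%). Of these, 21 and 30 were protein-coding. The 22 genes include Map7, Ermp1, Adcy1, Hist1h2bj and Camk2b, and the 30 include Tcerg1l, Adcyap1 and Grik3, a kainate receptor subunit. In the lower set the median log2 difference from neither was -0.22 for ethanol alone, -0.22 for enrichment alone and -0.03 for both. In the higher set these were 0.26, 0.24 and 0.01. The mean with both exposures was nearer to the mean with neither than to either single exposure in 21 of the 22 and 27 of the 30 genes. These genes were chosen for this order, so the counts and sizes describe the order and do not test it. How many genes would separate in this way without any group difference was not computed.

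Read over gene lists, the interaction was small in most functions of neurons. Of all tested genes 48.4% had a positive value and the median was -0.01. Over the 40 lists 0 members had a limma adjusted p under 0.05. For the member counts at an unadjusted p under 0.05 given below, the shares over all tested genes were 3.42% positive and 3.99% negative. Medians beyond 0.2 in either direction belonged to lists of stress and immune genes, clock genes, dentate granule and CA2 or CA3 cells, vessels, meninges, striatum and choroid plexus. Cytosolic ribosomal proteins (76 tested, median 0.01), nuclear genes of the respiratory chain (53, -0.03), presynaptic release (30, 0.03), GABA-A receptors (12, -0.01), microglia (19, 0.01) and interferon response genes (26, 0.01) were near the median of all genes.

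**Figure D3:**
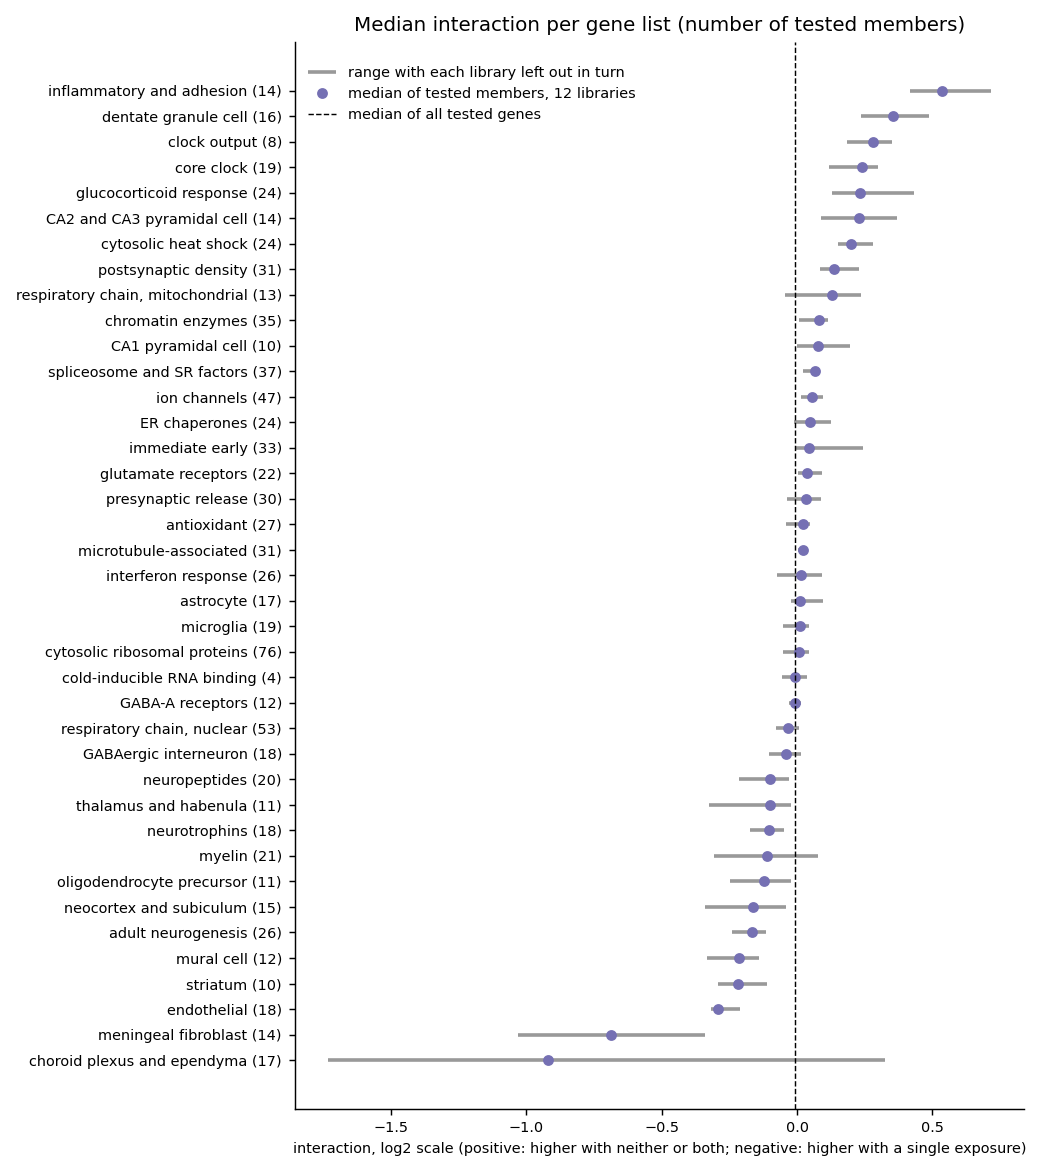
Median interaction (horizontal axis, log2 scale) of the tested members of each list, with their number in brackets; grey lines give the range of that median when each library is left out in turn, and the dashed line is the median of all tested genes, -0.01. The inflammatory list is farthest to the right at 0.53, and the meningeal and choroid plexus lists are farthest to the left at -0.69 and -0.92, with the widest ranges.

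Genes of the postsynaptic density, the protein scaffold under excitatory synapses, leaned towards positive interactions. As log2 differences from the 12-library mean, the list mean was lowest with enrichment alone (-0.07). It was 0.02 with neither, 0.01 with ethanol alone and 0.04 with both. Of 31 tested, 27 had a positive interaction with a median of 0.14 (0.08 without neither replicate 3 and 0.23 without neither replicate 1). At an unadjusted p under 0.05, 3 were higher with neither or both and 1 higher with a single exposure (3.42% and 3.99% of all tested genes). Camk2b, a subunit of the calcium-dependent kinase of synaptic plasticity, had levels of 502, 667 and 525 with neither, 501, 470 and 428 with ethanol alone, 501, 479 and 477 with enrichment alone and 552, 539 and 507 with both (interaction 0.40, limma adjusted p = 0.589). Kalrn, an exchange factor that shapes spines, lay between 330 and 378 after a single exposure and between 362 and 416 otherwise (interaction 0.27). Camk2d went the other way: it was 65.4, 75.0 and 73.0 with enrichment alone and between 26.4 and 59.5 elsewhere (interaction -0.70, and -0.43 without neither replicate 2). The list mean did not separate the groups, since neither replicate 1 had the lowest list mean of the 12 libraries and neither replicate 3 the highest.

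Channels and receptors showed single cases and no common direction. Of 47 tested ion channel genes, 30 were positive, with a median of 0.05. Kcna1, a potassium channel of axons, was lowest with enrichment alone at 69.3, 61.4 and 61.7, against 67.2 to 77.8 elsewhere (interaction 0.30). Of 22 glutamate receptor genes, Grik3 lay between 15.7 and 20.8 in the single-exposure libraries and between 12.6 and 15.3 in the others (interaction -0.42). The limma adjusted p of Kcna1 and Grik3 was 0.570 and 0.609. Snrpb, a core protein of the spliceosome, was 105, 106 and 102 with neither and between 80.3 and 94.6 in the 9 exposed libraries, which overlapped each other (interaction 0.33, limma adjusted p = 0.509).

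Of 20 neuropeptide genes tested, 15 had a negative interaction, with a median of -0.10 that ran from -0.21 without replicate 3 of the both group to -0.03 without its replicate 1. The list mean was highest with enrichment alone (0.13 from the 12-library mean), whereas ethanol alone and both were level (-0.01 each) and neither was lowest (-0.11). Besides Adcyap1, Nts, which encodes neurotensin, had levels of 9.46, 8.26 and 9.33 with neither, 10.1, 12.9 and 11.9 with ethanol alone, 18.1, 13.4 and 14.9 with enrichment alone and 11.7, 11.3 and 12.5 with both (interaction -0.71, limma adjusted p = 0.509). Cartpt, the precursor of the CART peptide of the dentate hilus and mossy cells, was lowest with neither at 2.52, 2.58 and 3.003 and highest with enrichment alone at 5.23, 7.64 and 3.89 (interaction -0.90). Enrichment alone was thus the highest group in all 3 peptide genes, and the mean with both exposures lay below that with neither in Adcyap1 and above it in Nts and Cartpt.

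Growth factor genes did not share a direction: 8 of 18 tested were positive, with a median of -0.11. Igfbp3, which binds insulin-like growth factors, was 14.1, 13.6 and 14.1 with ethanol alone and between 8.73 and 11.3 in the other 9 libraries (interaction -0.52, limma adjusted p = 0.529). Igfbp7 was between 12.5 and 17.4 with neither and between 18.6 and 27.1 in the 9 exposed libraries (interaction -0.61). Ntf3, the neurotrophin NT-3, had its highest group in both exposures at 11.3, 10.5 and 11.2 and its lowest in ethanol alone at 6.59, 7.89 and 7.15 (interaction 0.57). Bdnf, the neurotrophin most often studied in enrichment, lay between 21.6 and 34.0 with overlapping groups and an interaction of 0.04 (SE 0.19). Its sign turned with library weights and when single libraries were left out.

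In the dentate gyrus, markers of mature granule cells had a positive interaction in 13 of 16 tested genes. Their median was 0.36 (0.24 without ethanol-alone replicate 2). The list mean was high with neither alone (0.20, log2 from the 12-library mean). It was -0.09 with ethanol alone, -0.10 with enrichment alone and -0.01 with both, whose libraries lay within the ethanol-alone range. At an unadjusted p under 0.05 there were 5 against 1 (3.42% against 3.99% of all tested genes). The 1 of opposite sign was Marcksl1 (interaction -0.34, limma adjusted p = 0.610). Dsp, desmoplakin, which marks granule cells in mouse brain, had levels of 20.3, 33.7 and 19.7 with neither, 18.0, 10.8 and 11.3 with ethanol alone, 12.8, 15.9 and 11.5 with enrichment alone and 19.2, 15.1 and 15.9 with both (interaction 1.16, SE 0.32, limma adjusted p = 0.530). Lct had 18.3, 28.4 and 16.1, then 16.4, 14.3 and 11.6, then 15.3, 16.2 and 14.1, then 21.6, 21.8 and 19.4 in the same groups (interaction 0.97). Neither replicate 2 was the highest library for both genes, and the list mean of that library was 0.45 above the 12-library mean, against -0.21 to 0.11 in the others. Without it and without enrichment-alone replicate 2 the list median was 0.32. In bulk tissue, fewer cells of a type and less RNA per cell cannot be told apart, and the dissected share of the dentate gyrus was not measured.

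Genes of adult neurogenesis, the birth and maturation of new granule cells, were negative in 19 of 26 tested, with a median of -0.17. At an unadjusted p under 0.05 there were 5 against 1 (3.99% against 3.42% of all tested genes). The list mean was higher in the 2 ethanol groups, at 0.16 with ethanol alone and 0.06 with both (log2 from the 12-library mean). It was -0.08 with enrichment alone and -0.14 with neither. Dcx, the doublecortin of migrating immature neurons, had levels of 5.46, 4.06 and 6.04 with neither, 9.85, 7.92 and 8.77 with ethanol alone, 7.53, 6.66 and 7.21 with enrichment alone and 8.27, 8.39 and 7.96 with both. The neither group was lowest without overlap, and both exposures together gave no higher level than ethanol alone (interaction -0.54, SE 0.20, limma adjusted p = 0.614). Sox11, a transcription factor of immature neurons, was instead at 7.12 to 8.68 with neither, 10.7 to 11.7 with ethanol alone, 8.10 to 9.08 with enrichment alone and 11.6 to 12.5 with both. Its ethanol libraries were highest in either housing, and its interaction was -0.03 (SE 0.14). Neurod2, a factor of maturing excitatory neurons, was positive, with 71.9 in neither replicate 2 and 44.1 to 56.2 in the other libraries (interaction 0.50).

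Stress genes were high in replicates 1 and 2 of the both group and not in replicate 3. The cytosolic heat shock list had means of 0.43, 0.43 and -0.07 in the both libraries, as log2 differences from the 12-library mean, and -0.16 to 0.02 in the other 9. Hspa1a and Hspa1b, near-identical genes of the inducible chaperone Hsp70, had 39.9, 40.0 and 7.96 and 48.9, 50.2 and 11.3 in the both group. In the other libraries they lay between 9.14 and 12.3 and between 9.62 and 14.6. Replicate 3 was thus below the other groups for Hspa1a, while replicates 1 and 2 were above them. Of 24 heat shock genes tested, 22 were positive, with a median of 0.20. At an unadjusted p under 0.05 there were 4, all positive (3.42% of all tested genes). Dnajb1, a co-chaperone of Hsp70, had 47.3, 52.8 and 25.6 with both and 23.9 to 32.9 elsewhere. Hspb1, a small heat shock protein, had 25.8, 24.6 and 6.67 against 4.54 to 11.5 elsewhere, and Bag3, a chaperone partner, 6.14, 5.25 and 3.84 against 3.09 to 4.25. Fkbp4, which helps fold steroid receptors, had 140, 134 and 118 with both and 97.7 to 118 elsewhere (interaction 0.28, limma adjusted p = 0.606).

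The inflammatory and adhesion list followed the same libraries, at 0.79, 0.81 and -0.19 in the both group and between -0.34 and -0.015 elsewhere. Of 24 listed genes, 14 reached the minimum mean of 1 and were tested. Of these 14, 13 were positive, with a median of 0.53 (0.27 with a minimum mean of 5, which leaves fewer genes). A gene that is low elsewhere can reach that mean through replicates 1 and 2 of the both group. The count and the median therefore depend in part on the filter and are no test. Icam1, an adhesion molecule of activated endothelium, had 15.6, 13.6 and 2.64 with both and 2.33 to 3.43 in the other groups (interaction 1.07, limma adjusted p = 0.747). Tnfaip3, a brake on NF-kappaB signalling, was higher in all 3 both libraries at 5.10, 4.48 and 4.31, against 2.15 to 3.33 elsewhere (interaction 0.63, limma adjusted p = 0.610). Socs3, a feedback inhibitor of cytokine signalling, was the exception with an interaction of -1.18, at 0.657 to 1.11 with neither, 1.60 to 2.12 with ethanol alone, 2.08 to 2.65 with enrichment alone and 1.11 to 2.21 with both. Cxcl10, an interferon-induced chemokine, was instead highest with neither at 3.54, 1.67 and 1.63 (interaction 1.47), so its positive value came from another group than that of Icam1.

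Glucocorticoid response genes, 18 of 24 positive with a median of 0.23 (0.43 without replicate 3 of the both group and 0.13 without its replicate 1), had list means of 0.36, 0.31 and -0.17 in the both libraries and -0.19 to 0.07 elsewhere. Sgk1, a kinase induced by glucocorticoids, had 143.9, 150.4 and 51.4 with both and 51.3 to 76.7 in the other groups. Ddit4, an inhibitor of growth signalling, had 62.6, 63.9 and 43.2 with both and 34.3 to 46.7 elsewhere (interaction 0.58), and Errfi1, a receptor tyrosine kinase inhibitor, 35.6, 39.5 and 26.5 against 23.6 to 28.2 (interaction 0.46). Replicate 3 of the both group thus lay within the range of the other groups in these genes, and the limma adjusted p of Ddit4 and Errfi1 was 0.614 and 0.609. Without replicate 3 of the both group, 12 genes passed, among them Hspa1a (2.13, limma adjusted p = 0.000714), Hspa1b (2.09, 0.00412), Icam1 (1.82, 0.0333) and Sgk1. Replicate 3 was the library of that group that differed from replicates 1 and 2 in these named genes. The p values without replicate 3 are therefore no separate test of them. That library also decided 2 genes of the opposite sign: Fabp7, a fatty acid binding protein of radial glia-like progenitors, and Cldn5, a tight junction protein of endothelial cells. Fabp7 had 59.5, 55.4 and 119 with both, 52.4 to 65.3 with neither, 102 to 126 with ethanol alone and 70.4 to 83.2 with enrichment alone. Its interaction was -0.94 (limma adjusted p = 0.589), and -1.29 without that library (0.0175). What set replicate 3 of this group apart from the others was not tested.

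**Figure D4:**
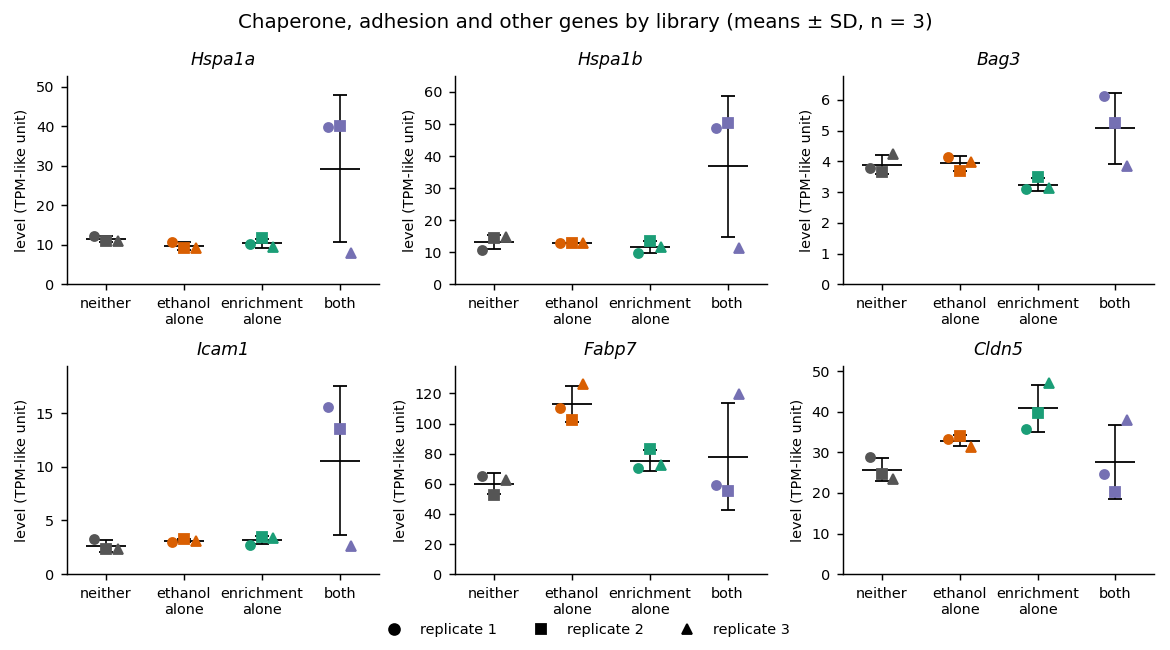
Level in each library (vertical axis, TPM-like unit) of 6 genes by group, with the mean and SD of 3 libraries; symbols mark replicates. Replicates 1 and 2 of the both group reach 39.9 and 40.0 for Hspa1a and 15.6 and 13.6 for Icam1, while replicate 3 sits at 7.96 and 2.64, and Fabp7 and Cldn5 show the reverse within that group.

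Clock genes, which keep daily time through the feedback of period and cryptochrome proteins on Clock and Bmal1, gave 14 of 19 positive values. Of these, 4 had an unadjusted p under 0.05 (3.42% of all tested genes). The median of the clock genes, 0.24, was 0.12 without enrichment-alone replicate 1 or without neither replicate 1. Per3 had 13.4, 12.02 and 13.2 with neither, 11.5, 9.40 and 9.99 with ethanol alone, 6.75, 8.43 and 9.26 with enrichment alone and 11.5, 11.7 and 7.80 with both (interaction 0.62, SE 0.23, limma adjusted p = 0.613). Ciart, a repressor of the same loop, was 17.7 to 18.7 with neither, 12.3 to 14.9 with ethanol alone, 8.73 to 11.7 with enrichment alone and 8.70 to 14.9 with both (interaction 0.57). Bhlhe41, another repressor, was highest with neither at 19.96, 22.05 and 26.00 (interaction 0.55). In all 3 genes the neither group had the highest mean and enrichment alone the lowest.

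Arntl, which encodes Bmal1 and peaks at the opposite time of day to the period genes, had the opposite order. It lay between 19.0 and 22.7 with neither, 19.6 and 21.1 with ethanol alone, 31.04 and 39.7 with enrichment alone and 24.7 and 30.6 with both (interaction -0.33, and -0.21 without enrichment-alone replicate 1, limma adjusted p = 0.698). Per1 split the enriched libraries: enrichment-alone replicate 3 and replicates 1 and 2 of the both group had the higher Per1 levels of their groups, 27.3, 32.05 and 35.7, against 16.85 to 17.8 in the other enriched libraries. Per2 was 9.20, 8.82 and 10.6 in those libraries and 4.88 to 6.18 in the other enriched ones. The standard-housed libraries lay between 23.5 and 38.5 for Per1 and between 9.46 and 11.6 for Per2. The enriched libraries thus split for these genes, in part along the same lines as the heat shock genes. Clock output genes were positive in 7 of 8 tested, with a median of 0.28 (0.19 without replicate 2 of the both group). Wee1, a cell cycle kinase under clock control, had 11.8 to 12.6 with neither, 10.04 to 11.1 with ethanol alone, 9.99 to 10.8 with enrichment alone, and 12.5, 12.6 and 10.7 with both (interaction 0.37, limma adjusted p = 0.609). The labels do not give the hour at which the mice were killed, and its part in these values was not tested.

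Among glia, Gfap, the intermediate filament of astrocytes, stood out for a level that was low with enrichment alone. Its levels were 260, 220 and 267 with neither, 252, 248 and 253 with ethanol alone, 169, 202 and 166 with enrichment alone and 276, 252 and 242 with both. The enrichment-alone libraries lay below all 9 others, which overlapped. The interaction was 0.50 (SE 0.13) and did not pass (limma adjusted p = 0.509). The 17 tested astrocyte genes had a median interaction of 0.01. Their mean level was also lowest with enrichment alone (-0.09 from the 12-library mean, range -0.10 to -0.08), where the other groups had 0.00, 0.07 and 0.02, although neither replicate 2 was lower still at -0.17. Myelin genes were negative in 13 of 21 tested, with a median of -0.11, which became 0.08 without neither replicate 2. At an unadjusted p under 0.05 there were 2, both positive (3.42% of all tested genes). These were Ndrg1 (interaction 0.38, limma adjusted p = 0.589) and Ermn (0.52, 0.609). Mbp, myelin basic protein, had an interaction of 0.18 (SE 0.24), which was 0.39 without neither replicate 2 and 0.01 without neither replicate 1.

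Vessel genes were mostly negative, 15 of 18 endothelial genes with a median of -0.29. At an unadjusted p under 0.05 there were 4 against 1 (3.99% against 3.42% of all tested genes). Cldn5 had 28.9, 24.7 and 23.5 with neither, 33.3, 34.0 and 31.4 with ethanol alone, 35.8, 39.6 and 47.0 with enrichment alone and 24.7, 20.2 and 37.9 with both (interaction -0.95, SE 0.26, limma adjusted p = 0.525). Single exposures lay above neither without overlap, and replicate 3 of the both group was within the range of the single exposures. Without it the interaction was -1.20 (limma adjusted p = 0.0413). Itm2a followed with less separation, between 43.1 and 54.2 after a single exposure and between 34.1 and 50.5 otherwise (interaction -0.51). Slc2a1, the glucose transporter of the blood-brain barrier, had the opposite sign. It was 24.6, 29.7 and 30.4 with enrichment alone and 32.9 to 45.9 elsewhere (interaction 0.45).

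Genes of tissue that borders the hippocampus carried the largest list medians regardless of sign, and these medians changed strongly when single libraries were left out. All 14 tested genes of meningeal fibroblasts, the collagen-making cells of the brain's covering, were negative, with a median of -0.69. Col3a1, a fibrillar collagen, had 2.63, 1.45 and 1.42 with neither, 8.87, 4.40 and 8.42 with ethanol alone, 2.92, 4.18 and 4.61 with enrichment alone and 4.20, 2.19 and 3.97 with both (interaction -1.89, SE 0.44, limma adjusted p = 0.509). Col1a1 (interaction -0.78) had 2.63 to 4.78, 7.25 to 9.67, 4.27 to 5.61 and 4.43 to 7.05 in the same groups. Dcn, decorin, which CA1 cells also express, was 40.3 to 46.9 with neither and 46.4 to 94.8 in the exposed libraries (interaction -1.10). The list mean was -0.98 in neither replicate 2 and -0.47 in neither replicate 3, against -0.13 to 0.53 in the other 10 libraries. The list median was -0.34 without neither replicate 2, and -0.21 without that library and enrichment-alone replicate 2. The part of attached meninges in the vessel and other results was not tested.

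Choroid plexus and ependymal genes were negative in 14 of 17, with a median of -0.92 that became 0.32 without enrichment-alone replicate 2. The interaction of Ttr was -2.44 with a standard error of 2.40, and 0.15 without that library. Genes of the striatum (10 tested, median -0.22) and of the neocortex and subiculum (15, -0.16) had smaller values. Neither replicate 2 had the lowest list mean for both, at -0.36 and -0.52.

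**Figure D5:**
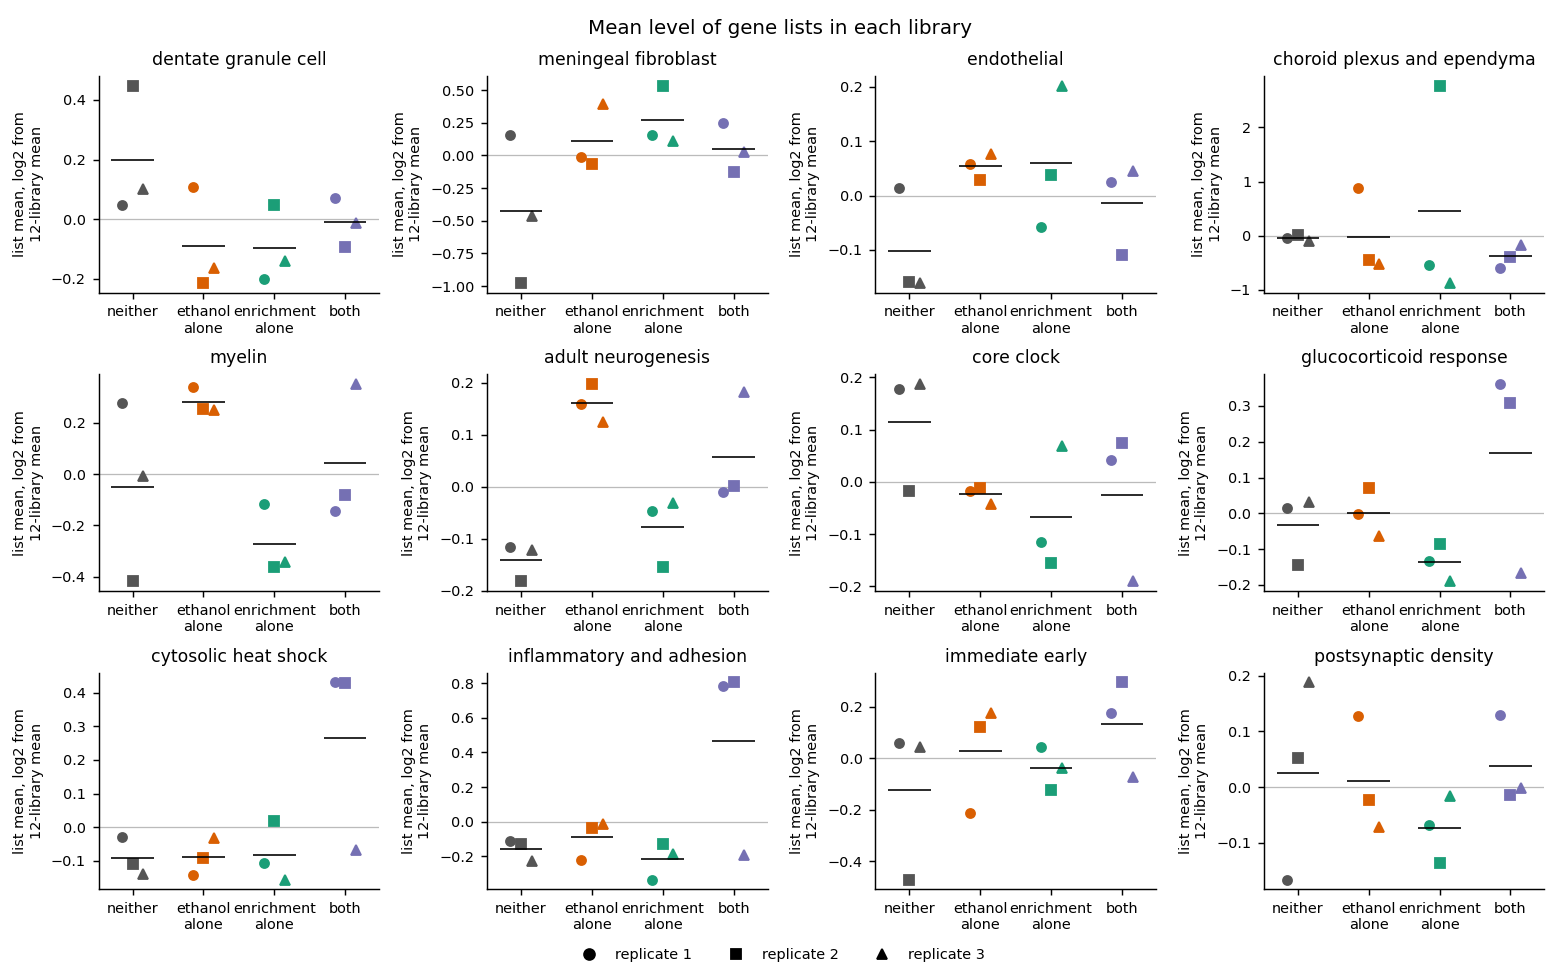
Mean level of the tested members of 12 gene lists in each library (vertical axis, log2 difference from the 12-library mean), by group; symbols mark replicates and horizontal lines the group means. Neither replicate 2 is highest for granule cells at 0.45 and lowest for meningeal fibroblasts at -0.98, enrichment-alone replicate 2 stands out for choroid plexus at 2.77, and replicates 1 and 2 of the both group for heat shock at 0.43.

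Rbm3 and Cirbp, 2 of the 4 cold-inducible genes, had interactions smaller than their errors. Rbm3, a cold-inducible RNA-binding protein that supports synapse maintenance, had 240, 258 and 237 with neither, 180, 179 and 202 with ethanol alone, 170, 172 and 200 with enrichment alone and 144, 163 and 130 with both. Each exposure alone lay below neither and both together lay lowest, without overlap with neither or with the single exposures. The interaction of Rbm3 was 0.08 (SE 0.13), within its error of the value 0 that marks added differences on the log2 scale. Cirbp, its relative, was 90.7 to 100 with neither, 67.1 to 89.5 with ethanol alone, 86.0 to 97.3 with enrichment alone and 71.1 to 74.3 with both, with an interaction of -0.03 (SE 0.13). Of the other members of that list, Rtn3, a reticulon of the endoplasmic reticulum, had 0.02 (SE 0.12) and Srsf5, a splicing factor, -0.35 (SE 0.20, limma adjusted p = 0.725), which is larger than its error and did not pass.

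Immediate early genes, which neurons switch on within minutes of firing, had a median interaction of 0.04 over 33 tested, with 18 positive and standard errors from 0.09 to 0.84. Without neither replicate 2, the lowest library for this list, the median was 0.24. A single member had an unadjusted p under 0.05: Jun, a subunit of the transcription factor AP-1, was 64.4, 59.5 and 52.3 with both and 43.6 to 61.1 elsewhere (interaction 0.36, SE 0.15, limma adjusted p = 0.657). Fos was 34.5, 5.13 and 27.4 with neither, 17.4, 41.7 and 44.8 with ethanol alone, 36.3, 20.1 and 28.6 with enrichment alone and 30.2, 43.2 and 19.5 with both (interaction -0.79, SE 0.84). All 4 groups overlapped, and without neither replicate 2 the value was 0.04. Npas4, Arc, Egr1 and Nr4a1 had interactions of -0.78 (SE 0.57), 0.50 (SE 0.57), -0.09 (SE 0.42) and 0.00 (SE 0.48), which became -0.39, 0.98, 0.30 and 0.44 without neither replicate 2.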

How the data were processed

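The deposited table holds 1 value per gene and library for 12 libraries. The submitters' processing notes name CASAVA, kallisto, sleuth and mm10, without versions or order. The authors name the values TPM, yet the columns do not share 1 sum, so they were treated as a deposited signal proportional to TPM within a library. Such values keep no counts: depth is unknown and no counting interval is given. All 12 columns were matched to samples by name.

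Genes with a mean of at least 1 were analysed as log2(value + 0.5), which understates differences at low levels. A mean for each of the 4 groups was fitted with limma 3.58.1 in R 4.3.3 (8 residual and 3.82 prior degrees of freedom, mean-variance trend), two-sided, with Benjamini-Hochberg adjustment over 14947 genes. Squared differences, orders and list summaries were computed from the same scale. The fit was tested on simulated data. Symbols, biotypes and positions came from GENCODE M21 on GRCm38, the assembly mm10 names, with 35879 of 36119 identifiers named. The text names called genes, the 10 genes of smallest p in each direction, the 3 members of smallest p in each of 40 lists, every member of the clock, heat shock, cold-inducible and immediate early lists as needed, and preset genes. Fewer than 5 named genes passed, so unnamed and predicted genes were kept. Some genes under this rule are not reported here. The members and lists were chosen with earlier results of these data known. Alternatives changed the pseudocount, filter, scaling, trend, weights, gene set, block and libraries; leaving out genes listed at 0 in a whole group was added after seeing the data. Replicate numbers are shared between groups, but of 18 same-number correlations of deviations (-0.15 to 0.06), 0 exceeded 0.1, so numbers were not taken to pair mice.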

Additional observations from a re-analysis of the deposited data

Results flagged for a closer look

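The interaction test itself called 2 genes. Both were listed at 0 in all enriched libraries, so an ethanol difference was seen in standard cages only and could not be measured in enriched ones. A listed 0 can be a failed estimate, the sizes depend on the pseudocount, and 0 genes passed with a pseudocount of 0.1. ENSMUSG00000118641 also lost its call in most fits with a library left out. The pseudogene Gm44922 had an interaction of 4.16 (limma adjusted p = 0.00263), being listed at 8.35 to 8.47 in the 3 neither libraries and at 0 in the other 9. The unnamed gene ENSMUSG00000118641 had -3.79 (limma adjusted p = 0.0418), being listed at 4.41 to 10.4 in the 3 ethanol-alone libraries and at 0 in the other 9.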

How the results depend on the processing

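The test called 2 genes, 1 in each direction. Leaving out single libraries gave 1 to 12 calls (1 to 9 higher with neither or both, 0 to 3 higher with a single exposure), 12 without replicate 3 of the both group and 7 without neither replicate 2. It gave 1 to 10 calls for the ethanol average and 2 to 12 for the enrichment average. Genes with the single-exposure libraries apart numbered 67 to 157 (30 to 68 below, 37 to 89 above), since fewer libraries have to separate. There were 0 calls in either direction with a pseudocount of 0.1, a mean of at least 5, protein-coding genes only, no genes at 0 in a whole group, or without the replicates 2 of neither and enrichment alone. Those settings gave 0 ethanol calls, and 0 enrichment calls with a mean of at least 5, protein-coding genes only or no genes at 0 in a whole group; leaving out the replicates 2 gave 9 enrichment calls and 136 genes apart (70 below, 66 above). No filter gave 4 calls (2 and 2), 6 for ethanol and 6 for enrichment. Median-ratio scaling and library weights each gave 2 calls higher with neither or both, no trend gave 2 higher with a single exposure, and quantile normalization gave 1 call, 0 higher with a single exposure and 1 for ethanol. With the replicate block there were 2 calls, both higher with neither or both, 0 in the other direction, and 1 for ethanol; 2 of 12 libraries correlated best with their own number. Signs turned for Sox11 (0.0081) and Nr4a1 (-4e-04) with quantile normalization, for Bdnf (-0.0201) and Nr4a1 (-0.0363) with library weights, and for Egr1 (0.1016) and Ttr (0.1664) without the replicates 2. Over single libraries left out, values ran from -0.0968 to 0.0374 in Sox11, -0.0861 to 0.1402 in Bdnf, -1.2796 to 0.0372 in Fos, -0.3376 to 0.2989 in Egr1, -0.2938 to 0.4413 in Nr4a1, -4.0844 to 0.145 in Ttr, -0.0031 to 0.1617 in Rbm3, -0.1266 to 0.0805 in Cirbp and -0.0888 to 0.097 in Rtn3. Where not stated, the cause was not tested. With 3 libraries a group, an interaction has a standard error of 0.18 at the median.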
